A study of Nicotiana tabacum with 3 samples.

Results

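The CYS-named genes and CP14 are 4 genes of the tobacco transcriptome, taken by their identifiers from 49454 genes listed in at least 1 library of WT two-celled proembryos. The CYS-named genes are CYS (LOC107823208), Nt-CYS (LOC107812029) and CYS3 (LOC107804696), and CP14 (LOC107815488) carries the name of the protease NtCP14. By name they are the candidates for the NtCYS-NtCP14 switch of suspensor programmed cell death (PCD). No product is given for the CYS-named genes, and whether any of them encodes a cystatin was not checked. The 3 libraries are replicates of 1 condition: WT Nicotiana tabacum SR1, with no transgene and no treatment, at 4 days after pollination, each prepared from a pool of isolated proembryos. No group of samples could therefore be set against another, and the genes were compared with each other inside each library. The labels do not say whether the pools came from separate plants, so the spread between libraries may be partly technical.

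A two-celled proembryo consists of an apical cell, which founds the embryo proper, and a basal cell, which founds the suspensor, the short-lived filament that joins the embryo to maternal tissue. Papain-like cysteine proteases are made as inactive precursors and can take part in PCD once they are active. Cystatins are small proteins that block such proteases by filling their active site. In tobacco, NtCYS is known as a cystatin that holds back the cathepsin H-like protease NtCP14 in the basal cell lineage, and the suspensor starts to die when the inhibitor declines. The whole proembryo was sequenced here, so apical and basal cells were not separated, and fewer cells that express a gene cannot be told apart from less RNA of that gene per cell.

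Expression is given as FPKM, a count of fragments per gene divided by the length of the transcript and by the library's mapped reads. The libraries listed between 44302 and 46255 genes, and 40925 genes were listed in all 3. The number of reads is unknown. From genes under 0.3 FPKM, the depth was 1.14 in library 2 and 0.912 in library 3, relative to library 1. None of the 6 names of early embryo markers could be matched to a gene, so the labelled cell type was not checked against its markers. The 8 names of seed coat and endothelium markers gave 4 genes, with a summed level of 402, 407 and 175 FPKM in libraries 1, 2 and 3. Most of this came from a pair of genes with the name CHI, whose products the gene table does not give, while F3H and DFR1 did not exceed 0.596 FPKM. All 4 were lowest in library 3, where F3H was not listed. Of the genes listed in all libraries, a set that leaves out F3H, 30.5% were lowest in library 3.

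The study took NtCYS from earlier work of its authors. The NtCYS oligonucleotides are shown here because they could tie that name to a transcript and a promoter. The pair of primers that measured the NtCYS transcript by qRT-PCR read, 5′ to 3′:
RT-NtCYS-F: tagtcattgcttccatcttttgc
RT-NtCYS-R: ttcaccaactttcaccactttagg
No transcript or genome sequence was at hand, so these primers were not placed on CYS, Nt-CYS or CYS3. Which of the 3 genes is NtCYS is thus not settled, and each is followed separately.

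The NtCYS promoter was probed with 5 short baits in yeast one-hybrid assays. In this assay, a transcription factor is tested for binding to a DNA placed before a reporter gene. The baits are shown without the bases left by the restriction sites, and capitals mark AATTT, a motif that transcription factors of the GRAS family, to which DELLA proteins belong, have been reported to bind:
M1: ttaggcagatAATTTattgtgaatc
M2: ttggccgaaaAATTTatttttggtt
M3: ttactctctaAATTTccggccttga
M4: taaggatgggAATTTcatttgtaaa
M5: ctatcgttaaAATTTgtcattatga
Each bait is 25 bases long and holds the motif once on the strand shown, from base 11. M2, M3 and M5 also hold it on the other strand, as AAATT, in a stretch that overlaps the motif shown. A and T make up 60.0% of M3 and between 72.0% and 76.0% of the others. None of the baits was placed on a genome. The primer pNtCYS-III-R of the chromatin immunoprecipitation assay, 22 bases long, lies whole on the other strand of the longer M3 probe used for gel shifts.

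Of the CYS-named genes, CYS3 was the most abundant in every library of two-celled proembryos. CYS3 (scaffold NW_015939577.1 of Ntab-TN90, from 95447 to 100176) had 583, 419 and 278 FPKM in libraries 1, 2 and 3. Its level was highest in library 1 and lowest in library 3, and the mean was 427 ± 153 FPKM (SD, n = 3). Only 148, 239 and 361 genes stood above it in libraries 1, 2 and 3, which put it between the 99.2 and 99.7 percentile of the genes listed in a library. Of all genes, 0.283% exceeded CYS3 in every library.

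CYS (scaffold NW_015833585.1, from 30396 to 33998) had 40.1, 16.6 and 56.2 FPKM in libraries 1, 2 and 3. Library 2 was the low one, and the mean was 37.6 ± 19.9 FPKM (SD, n = 3). CYS stood at the 91.1, 81.0 and 94.4 percentile of the genes listed in libraries 1, 2 and 3. Nt-CYS (scaffold NW_015953348.1, from 33873 to 40817) had 19.1, 25.6 and 14.9 FPKM in the same libraries, with a mean of 19.9 ± 5.37 FPKM (SD, n = 3). It stood at the 83.0, 87.1 and 78.6 percentile of the genes listed in these libraries, and its high library was the low library of CYS.

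CP14 (scaffold NW_015789489.1, from 22053 to 26006) was the lowest member in every library. It had 1.50, 3.13 and 9.39 FPKM in libraries 1, 2 and 3, with a mean of 4.67 ± 4.17 FPKM (SD, n = 3). Library 3 carried this mean, and without it the mean was 2.31 FPKM. CP14 stood in the middle of the transcriptome, at the 36.9, 48.4 and 69.3 percentile of the genes listed in libraries 1, 2 and 3.

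**Figure D1:**
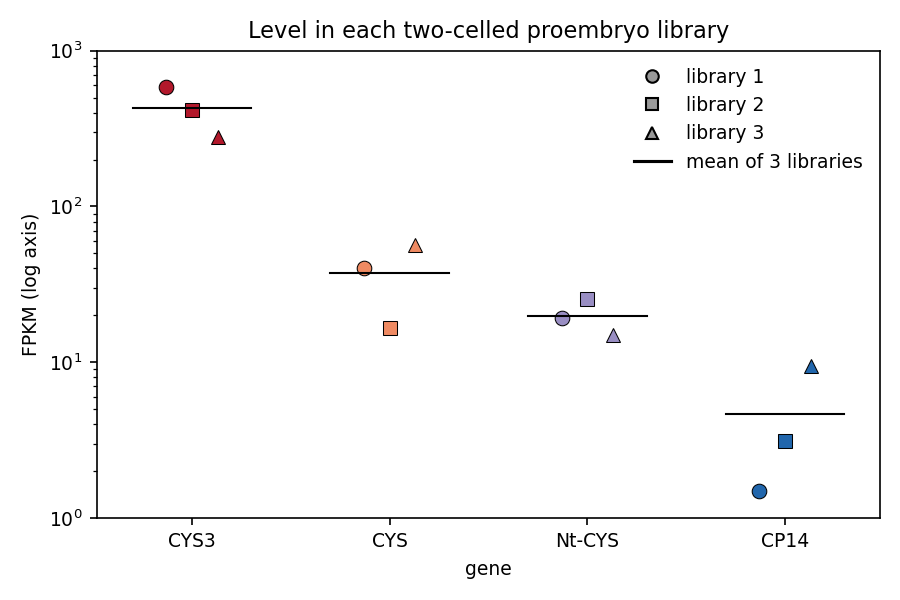
FPKM (log axis) of CYS3, CYS, Nt-CYS and CP14 in each library (circle, square and triangle for libraries 1, 2 and 3), with a bar at the mean of 3 libraries. CYS3 lies above the other genes and CP14 below them in every library, while the points of CYS and Nt-CYS overlap.

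In the order of levels, CYS3 and CYS were separated, since the lowest value of CYS3 (278 FPKM) was above the highest of CYS (56.2 FPKM). CYS and Nt-CYS were not separated, because Nt-CYS, at 14.9 to 25.6 FPKM, reached into the range of CYS. Nt-CYS and CP14 were separated by less than their means show: the lowest value of Nt-CYS was 14.9 FPKM and the highest of CP14 was 9.39 FPKM, both in library 3.

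The level of each CYS-named gene relative to CP14 was then read inside each library, where both genes share the depth. Effects of amplification that differ between genes remain in such a ratio and were not measured. All 3 CYS-named genes were above CP14 in all 3 libraries. The same holds for 27.7% of the 49454 genes (13719 genes), the background for that count. Without library 3 it held for 22493 genes, a count that can only stay or rise when a library is left out. CYS was 26.8, 5.28 and 5.99 times CP14 in libraries 1, 2 and 3, with a mean log2 ratio of 3.24 ± 1.30 (SD, n = 3). Library 1 stood apart in this ratio, and there CP14 was lowest.

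Nt-CYS was 12.8, 8.17 and 1.59 times CP14 in libraries 1, 2 and 3, with a mean log2 ratio of 2.46 ± 1.58 (SD, n = 3). In library 3 the pair came closest, where Nt-CYS was lowest and CP14 highest. CYS3 was 390, 134 and 29.6 times CP14, with a mean log2 ratio of 6.85 ± 1.87 (SD, n = 3). Its ratio spanned 13.2-fold between libraries, the widest of the 6 pairs of genes compared, because CYS3 was lowest where CP14 was highest. Each CYS-named gene was above CP14 in 3 of 3 libraries, but with 3 libraries a two-sided exact sign-flip permutation test cannot go below p = 0.25, and each of these ratios gave that value (0.30 after Benjamini-Hochberg adjustment over the 6 pairs).

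**Figure D2:**
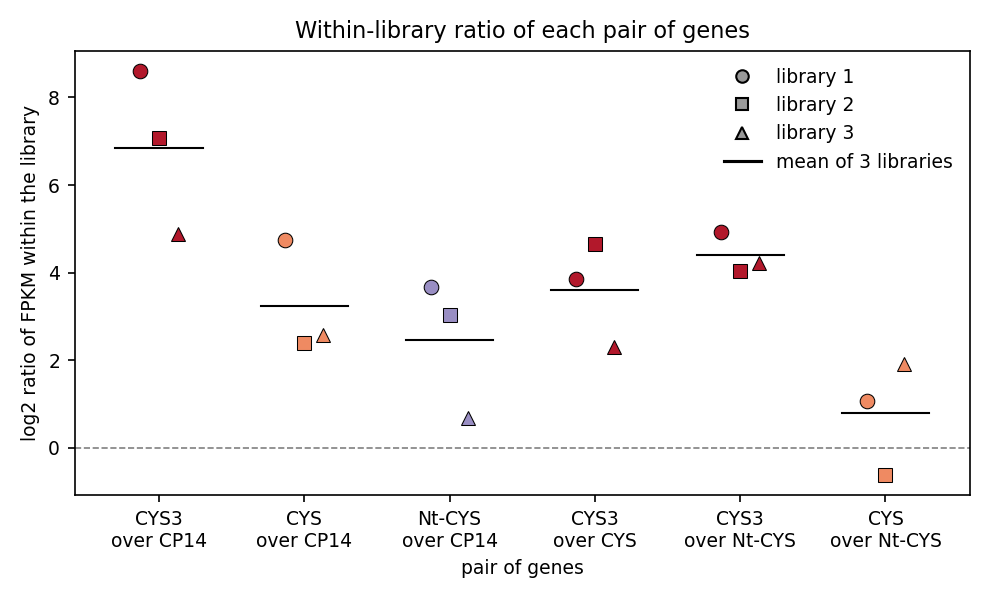
Log2 ratio of FPKM within each library for the 6 pairs of genes (circle, square and triangle for libraries 1, 2 and 3), with a bar at the mean and a dashed line at equal levels. The ratios over CP14 differ widely between libraries but lie above 0, and CYS over Nt-CYS lies on both sides of 0.

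Among the CYS-named genes themselves, CYS3 held most of the summed FPKM. Its share was 90.8%, 90.9% and 79.6% in libraries 1, 2 and 3. CYS held 6.25%, 3.59% and 16.1%, and Nt-CYS 2.98%, 5.55% and 4.28%. CYS3 was 30.5, 16.4 and 18.6 times Nt-CYS, and this was the most even ratio of all pairs, with a mean log2 of 4.39 ± 0.47 (SD, n = 3). CYS3 was 14.5, 25.3 and 4.95 times CYS, with a mean log2 ratio of 3.61 ± 1.20 (SD, n = 3). For both pairs the exact sign-flip permutation test gave p = 0.25 (adjusted 0.30), again the smallest it allows.

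CYS and Nt-CYS could not be ordered. CYS was 2.10 and 3.76 times Nt-CYS in libraries 1 and 3 and 0.647 times in library 2, so that it was higher in 2 of 3 libraries. The mean log2 ratio was 0.78 ± 1.29 (SD, n = 3), with p = 0.50 in the two-sided exact sign-flip permutation test (adjusted 0.50). A difference of this size is smaller than the spread between libraries.

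The members differed in how far they spread between libraries. The highest library was 6.28 times the lowest for CP14, 3.39 times for CYS, 2.10 times for CYS3 and 1.71 times for Nt-CYS. Thus 3 of the 4 spread at least 2-fold, as did 47.3% of the genes listed in all libraries, so that count does not set the members apart. The SD of log2(FPKM) was 1.33 for CP14, at the 91.1 percentile of the genes listed in all libraries, and 0.91 for CYS, at the 78.9 percentile. It was 0.53 for CYS3, at the 53.7 percentile, and 0.39 for Nt-CYS, at the 37.6 percentile, beside a median of 0.50 over all these genes. The usual spread depends on the level. Among the 1821 genes of like level, with means between 30.1 and 47.0 FPKM, the median SD was 0.32, and CYS was further out, at the 94.7 percentile. CP14 was at the 95.0 percentile of 4243 genes with means between 3.74 and 5.84 FPKM. Nt-CYS and CYS3 were at the 58.2 and 65.4 percentile of the genes of their levels. These percentiles describe 3 libraries and are no test.

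**Figure D3:**
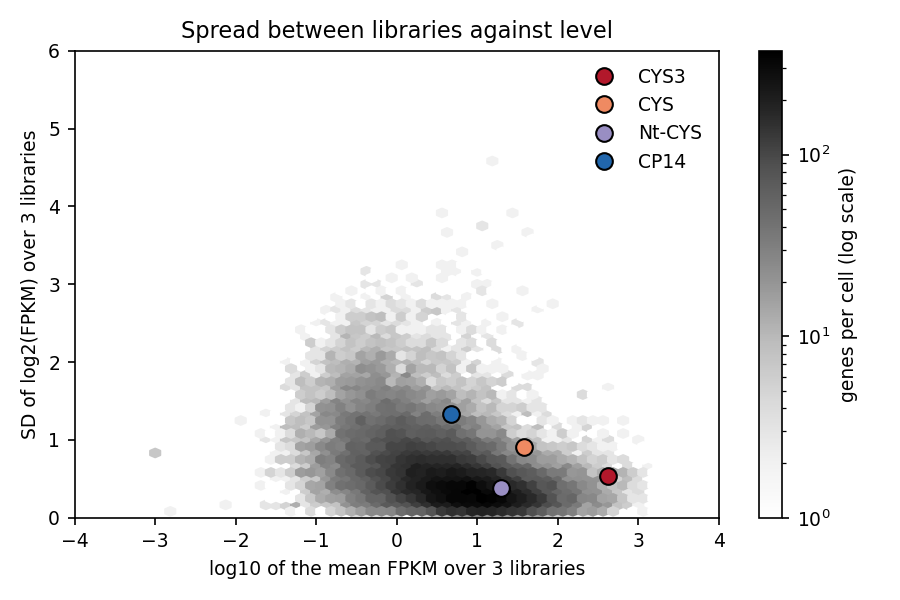
SD of log2(FPKM) over the 3 libraries against log10 of the mean FPKM, with grey cells shaded by the number of genes listed in all libraries (log scale) and the members as coloured points. CP14 (SD 1.33) and CYS (0.91) lie above most genes at their level, at the 95.0 and 94.7 percentile, and Nt-CYS (0.39) lies among the genes at its level.

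Library 3 against library 1 was the contrast in which CP14 differed most. Here CP14 had a log2 ratio of 2.65, at the 96.9 percentile of 42646 genes listed in both, and CYS3 had -1.07, at the 7.32 percentile. The median of all genes in this contrast was 0.17, so relative to it CP14 was at 2.48 and CYS3 at -1.23. CYS and Nt-CYS stood at 0.49 and -0.36, between the quartiles of all genes (-0.41 and 0.90). Library 2 against library 1 set CYS apart instead, at -1.28 and the 7.51 percentile, with CP14 at 1.07 and the 86.9 percentile. In library 3 against library 2, CYS and CP14 were both high, at 1.76 (the 91.3 percentile) and 1.58 (the 89.6 percentile), while Nt-CYS was at -0.78 (the 14.8 percentile).

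**Figure D4:**
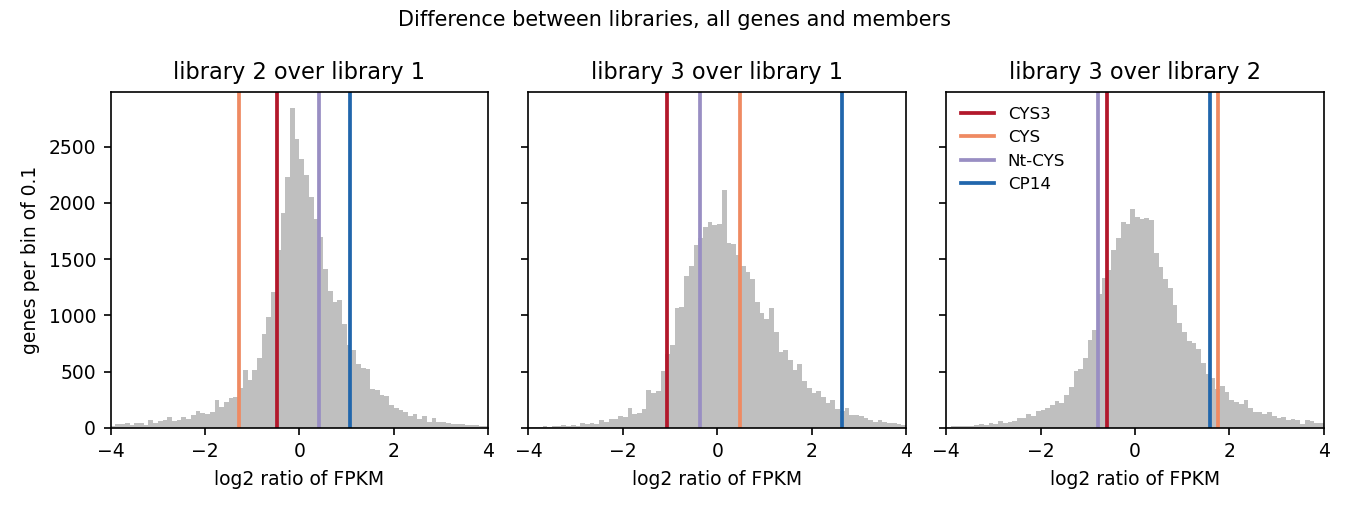
Distribution of the log2 ratio of FPKM between libraries over all genes listed in both (grey, bins of 0.1; the 303 to 482 genes beyond 4 in either direction are not drawn), with a coloured line for each member. CP14 lies to the right in all panels, and CYS lies far left for library 2 over library 1 and far right for library 3 over library 2.

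CP14 and CYS were highest in library 3, as were 43.9% of the genes listed in all libraries. CYS3 was lowest there and so was Nt-CYS, against 30.5% of those genes. In library 2, CYS was lowest, as were 32.2% of those genes, and Nt-CYS was highest, as were 29.5%. The 4 genes matched by a seed coat or endothelium marker name were also lowest in library 3, where F3H, which is not among those genes, was not listed. Their summed level there was 175 FPKM, against 402 and 407 FPKM in libraries 1 and 2. Most of this sum came from the pair of genes named CHI, whose products are not given, and F3H and DFR1 did not exceed 0.596 FPKM. The sum is thus no measure of seed coat tissue, and its relation to the levels of the members was not tested.

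CP14 was next set beside the other genes that carry a CP name for tobacco cysteine proteases in the gene table, CP1, CP2, CP6, CP8 and CP15, and NTCP-23, a papain-like protease. CP1 had 5.09, 5.55 and 5.54 FPKM in libraries 1, 2 and 3, a spread of 1.09-fold against 6.28-fold for CP14. CP14 was thus below CP1 in libraries 1 and 2 and above it in library 3. NTCP-23 had 2.90, 1.10 and 2.81 FPKM, and CP14 was below it in library 1 and above it in libraries 2 and 3. CP15 had 1.11, 0.227 and 3.92 FPKM, below CP14 in every library, with a 17.3-fold spread.

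The remaining CP-named genes were near 0. CP8 did not exceed 0.212 FPKM, CP2 was listed in 2 libraries at no more than 0.268 FPKM, and CP6 was listed in library 3 alone, at 0.0931 FPKM. CP14 had rank 3 among these 7 genes in library 1, rank 2 in library 2 and rank 1 in library 3. Its share of their summed FPKM was 14.0%, 29.9% and 42.8% in the same libraries. None of the other 6 was above CP14 in every library, against 27.7% of all genes. With CP1 in place of CP14, CYS kept a mean log2 ratio of 2.63, Nt-CYS of 1.85 and CYS3 of 6.24.

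The vacuolar processing enzymes (VPE), cysteine proteases of the vacuole that mature other proteins and act in forms of plant PCD, lay in the same range as CP14. NtVPE-3 had 9.79, 8.98 and 7.86 FPKM in libraries 1, 2 and 3, higher than CP14 in libraries 1 and 2 and lower in library 3. NtVPE-1b had 7.53, 2.20 and 7.37 FPKM and NtVPE-1a had 3.94, 1.96 and 6.87 FPKM. Both were lowest in library 2, as were CYS and 32.2% of the genes listed in all libraries. NtVPE-2 had 2.11, 2.76 and 0.938 FPKM. All 4 VPE genes were above CP14 in library 1, as were 63.1% of the genes listed there. All 4 were below it in library 3, where CP14 stood at the 69.3 percentile. BI-1, which carries the name of the cell death suppressor Bax inhibitor-1, had 46.6, 26.3 and 30.3 FPKM, in the range of CYS and above CP14 in every library.

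**Figure D5:**
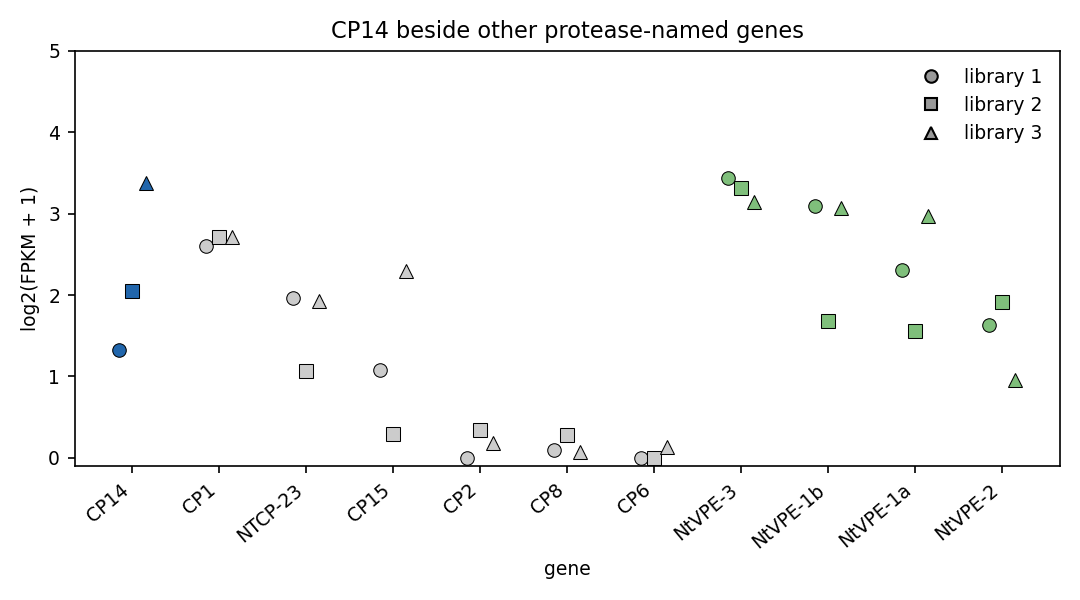
Log2(FPKM + 1) of CP14 (blue), the other CP-named genes (grey) and the VPE genes (green) in libraries 1, 2 and 3 (circle, square and triangle). In library 3 CP14, at 9.39 FPKM, lies above the other CP-named genes, while CP1 lies between 5.09 and 5.55 FPKM in all libraries.

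Upstream of NtCYS, gibberellin receptors of the GID1 family mark DELLA proteins for degradation. The paper found other NtGID1 genes in tobacco, which are not analysed here. The 3 receptor genes with an accession are those for which it reports interaction with NtCRF1 in yeast. These 3 were all listed, and all were below CP14 in library 3, where it stood at the 69.3 percentile of listed genes. NtGID1B3 had 3.98, 1.87 and 6.71 FPKM in libraries 1, 2 and 3, above CP14 in library 1 alone. NtGID1C2, at 1.81, 2.47 and 2.94 FPKM, was likewise above it in library 1 alone, and NtGID1B5 was below CP14 in every library, at no more than 1.15 FPKM. Each of them was below every CYS-named gene in every library. The lowest CYS-named gene stood at the 83.0, 81.0 and 78.6 percentile of the genes listed in libraries 1, 2 and 3. Most listed genes of a library were therefore below it as well. NtCRF1 was not matched by its accession and is not analysed here.

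The surroundings of the members on their Ntab-TN90 scaffolds were examined for listed genes that overlap them. No listed gene overlapped a member. Genes of similar sequence on other scaffolds, whose reads could be confused with those of a member, were not searched for because no sequences were at hand. The nearest listed gene to CP14 was LOC107815525, 129 bases away, which was listed in library 3 alone at 0.0782 FPKM, against 9.39 FPKM of CP14 there. LOC107815498, 1252 bases from CP14, had 0.761, 2.00 and 1.69 FPKM, highest in library 2 and lowest in library 1, where CP14 was lowest too. The remaining listed gene on this scaffold, LOC107815468, lay 9038 bases from CP14 and was listed in library 3 alone, at 0.0521 FPKM. The nearest to CYS, LOC107823209, lay 479 bases away and had 3.89, 4.89 and 2.92 FPKM, highest in library 2, where CYS was lowest. Of the 5 other genes on this scaffold, only LOC107823211, 24191 bases from CYS, was lowest in library 2, at 20.4, 0.0649 and 14.0 FPKM. LOC107823210, nearer at 3431 bases, had 31.3, 31.8 and 17.9 FPKM. Of the genes listed in all libraries, 32.2% were lowest in library 2. The other gene on the scaffold of Nt-CYS, LOC107812027, lay 1201 bases away and had 10.2, 12.7 and 9.40 FPKM, highest in library 2 and lowest in library 3, as Nt-CYS was. The nearest to CYS3, LOC107804690, lay 4138 bases away and had 24.2, 51.5 and 51.7 FPKM, lowest in library 1, where CYS3 was highest. Of the 12 other genes on that scaffold, the highest was LOC107804699, 66205 bases away, at 148, 146 and 76.5 FPKM.

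The genes most like each member over the 3 libraries were found by the root mean square difference of log2(FPKM). Nearest to CP14 was LOC107821904, at 1.50, 3.03 and 10.1 FPKM (difference 0.069), followed by LOC107810712 (0.076) and LOC107792730 (0.089). The nearest to CYS were LOC107769337, at 38.1, 16.6 and 52.6 FPKM (difference 0.071), LOC107816507 (0.097) and LOC107776708 (0.14). Nearest to Nt-CYS were LOC107821772 (0.035), LOC107826211 (0.040) and LOC107807855 (0.055), and nearest to CYS3 were LOC107779358 (0.10), LOC107767423 (0.13) and LOC107815363 (0.15). Within a difference of 0.5 there were 349 genes for CP14, 169 for CYS, 2252 for Nt-CYS and 151 for CYS3, of 40925 genes listed in all libraries. This difference takes in the level as well as the pattern over libraries.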

How the data were processed

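RNA-seq was done on 3 libraries of two-celled proembryos (WT, SR1), with cDNA amplified from very little mRNA. The authors filtered reads with Cutadapt and a script of their own, mapped them with Bowtie 2 to Ntab-TN90 and estimated FPKM per gene with RSEM. The submitters' processing notes name TopHat2 and RSEM. Versions are not given in the sources used here. The deposited FPKM tables, 1 for each library, list only genes above 0, and FPKM are not counts. RSEM can divide reads between similar genes, and amplification can add spread to low values. Neither effect was measured.

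Unlisted genes were set to 0. Names came from the RefSeq gene table of the K326 assembly, whose coordinates were not used. Gene starts were raised by 1 to count from 1: gene lengths in that table equalled end minus start in 840 genes and end minus start plus 1 in 239, of 42440 genes in both, so that this choice rests on few genes. Ratios are of FPKM in the same library, with no pseudocount. The 6 pairs of genes were tested with a two-sided exact sign-flip permutation test over libraries. A percentile is the share of genes at or below a value. The relative depth is a ratio on a linear scale, not a log2 value. It was converted from the median of the log2 ratios near the commonest one, for values under 0.3 FPKM. Scripts were tested on simulated data.

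The members and lists were chosen with earlier results of these data known. By rule, the genes named are the members, the matched pathway and marker genes, and the 3 nearest to each member in level and pattern together. CP, VPE and BI-1 genes and scaffold neighbours were added later, after the files had been opened. Cystatin, protease, metacaspase and DELLA families, planned on protein sequences, are not analysed here. Oligonucleotides came from the supplementary primer list. Python 3.11.15, numpy 2.4.6, pandas 2.3.3 and matplotlib 3.10.9 were used.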

Additional observations from a re-analysis of the deposited data

How the results depend on the processing

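All 6 mean log2 ratios kept their sign with pseudocounts of 1 and 0.1, as a median, and with each replicate left out, but none can pass a threshold of 0.05 with 3 libraries. For every pair except CYS over Nt-CYS the log2 ratio was positive in all libraries, so these settings could not have reversed its sign. Only their range is informative for those pairs. The ratio over CP14 ranged from 2.49 to 3.66 for CYS, from 1.85 to 3.35 for Nt-CYS and from 5.98 to 7.84 for CYS3 as replicates were left out. CYS3 over CYS ranged from 3.08 to 4.26, CYS3 over Nt-CYS from 4.13 to 4.57, and CYS over Nt-CYS from 0.22 to 1.49. CP1 in place of CP14, and the alternatives for the count of genes above CP14, were chosen after the data were seen.

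Ranked among genes of at least 1 FPKM, the mean percentile was 31.2 for CP14 in place of 51.5, 75.8 for Nt-CYS in place of 82.9 and 99.2 for CYS3 in place of 99.4, since fewer low genes are counted. The percentile of the spread was 65.4, 94.7 and 58.2 for CYS3, CYS and Nt-CYS among genes of like level, and 68.0, 91.5 and 48.9 among genes of at least 1 FPKM in all libraries, in place of 53.7, 78.9 and 37.6. The highest-to-lowest ratio, with each replicate left out, ranged from 2.10 to 6.28 for CP14, from 1.40 to 3.39 for CYS, from 1.39 to 2.10 for CYS3 and from 1.28 to 1.71 for Nt-CYS. For CP14 it was 2.996 without library 1 and 2.10 without library 3, for CYS it was 1.40 without library 2, and for CYS3 it was 1.39 without library 3. The number of genes above CP14 in every library ranged from 13742 to 22493, in place of 13719. With TPM and with median-ratio scaling the ratio of CP14 was 6.93 and 5.90. As TPM all 4 levels were higher, by less than their SD.

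No paired analysis was possible because all libraries belong to 1 condition, which leaves no groups of samples to pair. The ratios of genes are themselves taken within each library. Not run were the alternatives for phytocystatin and papain-like protease families, which needed protein sequences. The read depth is unknown, so no interval is given for a value.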
